A study of Mus musculus with 4 samples.

Results

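In embryonic mouse hearts without SMYD1, the CpG-rich promoters of single genes made up a large share of the sites of higher chromatin accessibility, and the 9112 peaks at such promoters are described here. They were chosen from the 25745 peaks that the authors listed as more accessible in *Smyd1-KO* hearts than in wild-type (WT) hearts, and made up 35.4% of that list (95% exact interval 34.8 to 36.0%). A peak was taken when 3 conditions held. Its nearer edge lay within 1 kb of a transcription start site (TSS) of a protein-coding gene, CpG dinucleotides occurred there, in the 500 bp centred on it, at 0.4 or more of the number that its C and G content predicts (the CpG ratio), and it did not lie within 1 kb of both TSSs of a divergent pair. A divergent pair is 2 protein-coding genes on opposite strands that are transcribed apart from TSSs at most 1 kb from each other. Of the 25745 peaks, 11331 met the first condition and 10142 the first 2, and 1030 of these were set aside because they lay at divergent pairs. None of these conditions used the score of a peak. The distance was unsigned, but the third condition removes peaks around divergent pairs, between whose starts all sequence lies upstream of both genes. The 9112 peaks are called the members.

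ATAC-seq, which reads out the DNA that the Tn5 transposase can reach in chromatin, was run on whole mouse hearts at embryonic day (E) 9.5. The *Smyd1-KO* hearts came from a conventional null line and so lacked SMYD1, a histone methyltransferase of striated muscle, in all cells, and the WT hearts carried no such change. Each genotype had 2 libraries, and each library held 40000 viable cells from 4 pooled hearts. Peaks were called after both libraries of a genotype had been merged, which leaves the values without replicate errors. For a gained peak, more cells of a type and more open alleles per cell cannot be told apart. The score is the authors' value for the pooled tags in the peak in *Smyd1-KO* hearts, given in steps of 0.5 and of unstated scaling, so tags here are its units and not whole reads. Since the WT tags of a member are not in the list, the score gives its height and not the size of its gain beyond the 2-fold minimum set in the study.

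Promoters rich in CpG dinucleotides, often called CpG islands, serve most housekeeping genes and many developmental regulators in mammals. They are usually unmethylated, start transcription from several nearby positions rather than from a TATA box, and hold binding sites for broadly expressed factors such as SP1, NFY, NRF1 and ETS proteins. A nucleosome-depleted stretch lies just upstream of the TSS of an active promoter of this kind, and the first nucleosome downstream is often firmly placed.

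The sequences below show the kinds of promoter DNA that the results turn on. Each is the part of a member upstream of its TSS and outside annotated exons, read on the strand of the gene from the GRCm38 assembly, whose sequence is that of mm10, and capitals mark matches to 12 fixed motif strings that were searched on both strands. Sertad2, which encodes a transcriptional regulator, had the highest score of all members, 2050 tags, at chr11:20542880-20543028, which is 225 to 373 bp upstream of the TSS. Map3k3, encoding a kinase of a MAP kinase cascade, had 1755 tags at chr11:106084177-106084325 and holds the NFY string 3 times. Rnf44, encoding a RING finger protein, had 1833.5 tags at chr13:54693947-54694095 and holds 3 GC boxes and 2 ETS strings. Pa2g4, which encodes a growth-related RNA-binding protein, had 1737.5 tags at chr10:128566103-128566251 and holds none of the strings.
Sertad2: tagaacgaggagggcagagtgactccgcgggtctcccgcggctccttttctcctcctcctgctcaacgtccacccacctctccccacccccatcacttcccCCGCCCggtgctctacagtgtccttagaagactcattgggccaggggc
Map3k3: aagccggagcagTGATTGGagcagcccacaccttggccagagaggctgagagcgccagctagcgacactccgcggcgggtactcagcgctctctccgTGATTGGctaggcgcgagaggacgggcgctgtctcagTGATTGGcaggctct
Rnf44: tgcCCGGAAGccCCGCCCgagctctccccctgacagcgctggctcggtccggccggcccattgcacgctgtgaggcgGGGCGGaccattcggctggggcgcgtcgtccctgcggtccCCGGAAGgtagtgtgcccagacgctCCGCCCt
Pa2g4: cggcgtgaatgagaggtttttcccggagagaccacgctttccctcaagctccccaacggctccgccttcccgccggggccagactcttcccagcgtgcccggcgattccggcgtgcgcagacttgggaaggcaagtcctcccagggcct

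A second set belongs to genes of the pathways that the study follows, except Setd2, which comes from a list of histone lysine methyltransferases used below. Mbd3, a subunit of the nucleosome remodelling and deacetylase (NuRD) complex, had 1663.5 tags at chr10:80399582-80399730 and holds the NFY string 2 times beside 1 GC box. Setd2, the enzyme that trimethylates lysine 36 of histone H3, had 1304 tags at chr9:110532278-110532426. Hk2, the hexokinase of the first step of glycolysis, had 959 tags at chr6:82774478-82774626 and holds 2 GC boxes and 1 NFY string. Bnip3, a hypoxia-induced gene of mitophagy, had 1119.5 tags at chr7:138909597-138909745 and holds 2 GC boxes and 1 E-box. The members at Vegfa, the main angiogenic growth factor (543.5 tags, shown at chr17:46032370-46032464), and at P4ha1, a collagen prolyl hydroxylase (1112.5 tags, shown at chr10:59323172-59323295), cover the TSS, and the stretch from the TSS onward is left out. P4ha1 is shown for its HIF string, read here on the opposite strand.
Mbd3: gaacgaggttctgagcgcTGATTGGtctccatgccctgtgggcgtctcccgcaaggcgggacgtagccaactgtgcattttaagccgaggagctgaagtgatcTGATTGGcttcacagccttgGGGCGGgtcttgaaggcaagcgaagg
Setd2: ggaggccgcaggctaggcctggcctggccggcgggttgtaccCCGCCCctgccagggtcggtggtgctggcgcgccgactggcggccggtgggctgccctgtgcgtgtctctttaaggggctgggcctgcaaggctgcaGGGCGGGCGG
Hk2: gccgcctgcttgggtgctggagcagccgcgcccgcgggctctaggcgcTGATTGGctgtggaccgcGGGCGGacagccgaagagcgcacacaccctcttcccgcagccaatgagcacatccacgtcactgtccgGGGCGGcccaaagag
Bnip3: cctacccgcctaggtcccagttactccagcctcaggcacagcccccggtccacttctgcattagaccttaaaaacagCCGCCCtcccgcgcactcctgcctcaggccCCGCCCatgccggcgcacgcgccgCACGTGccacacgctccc
Vegfa: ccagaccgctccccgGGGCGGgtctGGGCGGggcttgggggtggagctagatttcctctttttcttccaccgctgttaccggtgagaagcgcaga
P4ha1: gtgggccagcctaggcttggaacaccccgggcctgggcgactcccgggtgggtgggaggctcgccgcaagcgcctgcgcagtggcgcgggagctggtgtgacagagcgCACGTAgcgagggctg

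The members were tall peaks. They had 441 tags at the median, the middle of them lay between quartiles of 294.4 and 649.5 tags, and the lowest and highest had 36 and 2050. The 14414 gained peaks farther than 1 kb from a protein-coding TSS had a median of 93 tags, and the 1189 gained peaks at CpG-poor promoters one of 153. The members therefore held 61.3% of all tags in the list. The list median of 180.5 tags was reached by 91.8% of the members and 41.5% of the CpG-poor promoter peaks (odds ratio 15.9, two-sided Fisher's exact test, with a p-value below the smallest number the software holds). Peaks at divergent pairs reached it in 97.6% of cases, more often than the members (odds ratio 0.28, exact test with adjusted p = 1.64e-13), and had a median of 564 tags. Peaks are not independent samples, so these tests and all intervals cover counting error only. P-values were adjusted over the 6 tests of this kind.

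The 10 highest scores among members with at most 10% repeated sequence ran from 1737.5 to 2050 tags, and 9 of the 10 peaks lay wholly upstream of their TSS, with centres between 114 and 390 bp from it. Besides Sertad2, Rnf44, Map3k3 and Pa2g4 these were Rab40c, a small GTPase (1851.5 tags), Mxd1, a MAX partner that opposes MYC (1763 tags), Khsrp, an RNA-binding protein of mRNA decay (1744 tags), Tomm40, the channel of the outer mitochondrial membrane (1742.5 tags), and Tedc1, a protein of the tubulin delta and epsilon complex (1742.5 tags). The exception was Cdkn2d, an inhibitor of the kinases CDK4 and CDK6, whose peak of 1953 tags covered the TSS with its centre 22 bp downstream. The lowest member, 36 tags, covered a TSS of Tnni3k, a cardiac kinase, within a coding exon. Its CpG ratio of 0.404 was close to the minimum.

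The members clustered around the TSS. Of the 9112 peaks, 4925 (54.0%) covered a TSS, 2776 (30.5%) lay wholly upstream and 1411 (15.5%) wholly downstream. The median centre was 23 bp upstream, with quartiles at 94 bp upstream and 23 bp downstream, but lay 0.5 bp downstream when only the 5′-most start of each gene was used. With all starts, 63.3% of centres lay within 100 bp of the TSS. Among the members that missed the TSS, 66.3% were upstream (95% exact interval 64.9 to 67.7%). Of the members upstream, 69.6% lay outside any protein-coding gene, while 48.5% of those that covered the TSS were centred in a 5′ UTR and 46.9% of those downstream in an intron. The plot of peak positions shows the 3 kinds of promoter peak.

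**Figure D1:**
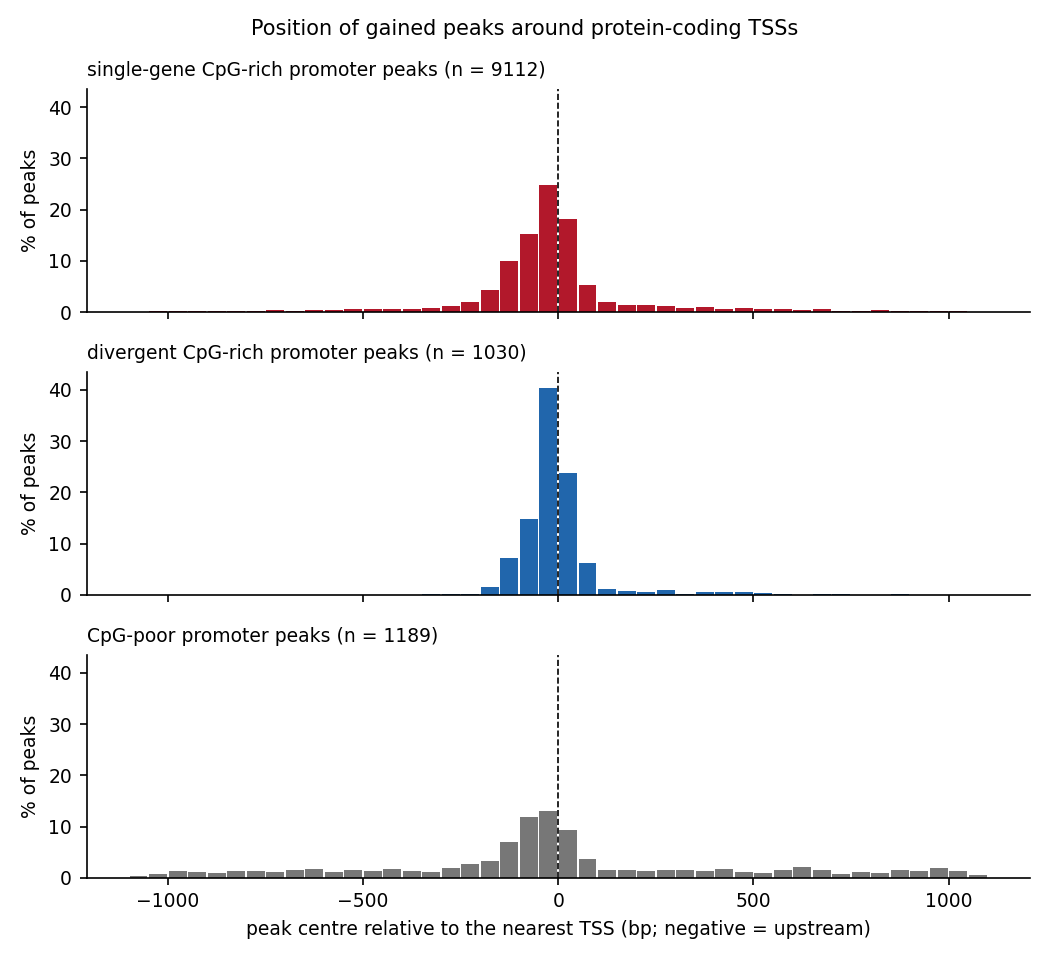
Histograms of the centre of each gained peak relative to the nearest protein-coding TSS (x axis, bp, 50 bp bins, negative values upstream) as a percentage of the peaks of that kind (y axis), for the 9112 single-gene CpG-rich, 1030 divergent CpG-rich and 1189 CpG-poor promoter peaks. Members and divergent peaks pile up just upstream of the TSS, and CpG-poor peaks are spread more widely.

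Compared with the other promoter peaks, the members stood between the 2 kinds in how often they covered the TSS. The share was 54.0% against 31.5% at CpG-poor promoters (odds ratio 2.55, exact test with adjusted p = 1.15e-48) and 77.4% at divergent pairs. A divergent peak lies by definition within 1 kb of at least 2 starts, so the second difference follows in part from the rule and is given as a description. The CpG ratio itself was higher near the TSS, with medians of 0.814 in members up to 100 bp upstream and 0.664 in those over 500 bp upstream, so the CpG condition and the position are not wholly separate. The upstream share of peaks that missed the TSS was 66.3% in members and 58% at CpG-poor promoters (odds ratio 1.43, exact test with adjusted p = 8.13e-06), and 66.1% at divergent pairs (odds ratio 1.01, adjusted p = 0.943). The last comparison passed the test with only the 5′-most start of each gene (odds ratio 1.48, exact test with adjusted p = 0.00565) and had an odds ratio of 0.789 within 500 bp of the TSS. Between the starts of a divergent pair all sequence is upstream of both, and each peak takes its nearest start. The rule thus limits how far upstream a divergent peak can lie, and its comparison with the members is a description. The side depends on which annotated starts are counted. With starts of protein-coding transcripts only, the upstream share of members was 62.5% and its difference from CpG-poor promoters no longer passed the test (odds ratio 1.19, exact test with adjusted p = 0.0629), and with only the 5′-most start of each gene the share was 47.1% and the difference turned to the other side (odds ratio 0.825, exact test with adjusted p = 0.0704). Within 500 bp of the TSS it did not pass either (odds ratio 1.17, exact test with adjusted p = 0.136).

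Taller members lay more often upstream. When the members were split by score into 4 groups of 2278, the median centre was 2 bp downstream in the lowest group and 11, 27 and 64 bp upstream in the next 3. The upstream share of members that missed the TSS was 43.0%, 59.2%, 73.8% and 87.9% from the lowest to the highest group, with an interval of 40.0 to 45.9% in the lowest and 85.9 to 89.7% in the highest. The median score was 542.2 tags in upstream members, 438 in those covering the TSS and 316.5 in those downstream. Among members that missed the TSS, grouped by the distance of their nearer edge, it was highest, 584.5 tags, in those up to 100 bp upstream and lowest, 265 tags, in those over 500 bp downstream. By that edge distance the median fell on each side, through 559, 422.5 and 334 tags farther upstream and from 366.5 through 325.5 and 292.5 tags downstream. By the centre, which also takes in members covering the TSS, the median was 471 tags in the first 100 bp upstream and 621.5 tags in the next 100. Over all members the score and the unsigned distance of the centre had a Spearman's rho of -0.0227 across the 9112 peaks, given as a description. Under each of the other settings tried, the median score stayed higher upstream than downstream, and with only the 5′-most start of each gene it was 583.5 against 377.8 tags.

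**Figure D2:**
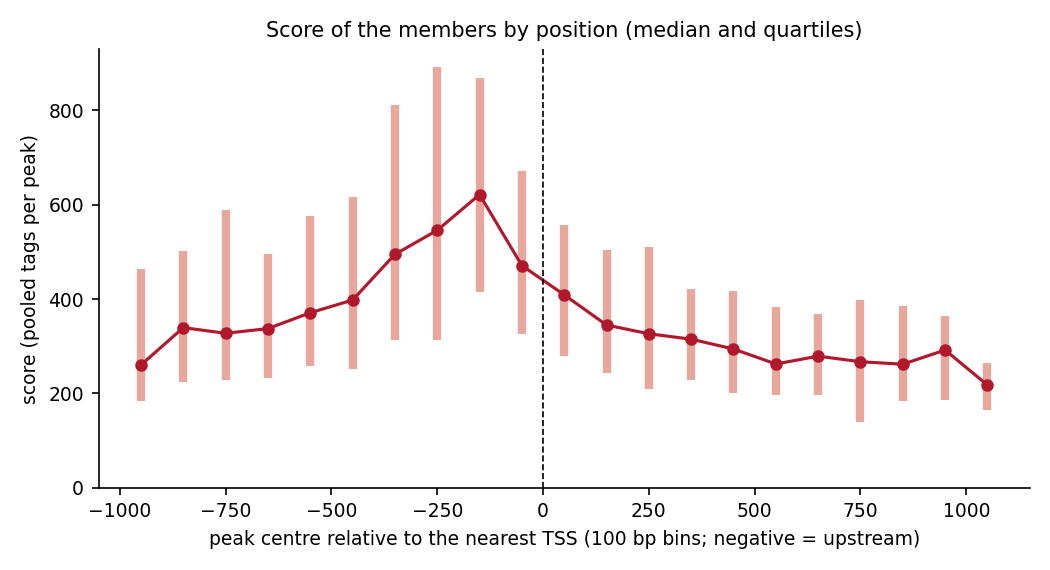
Median score (points, pooled tags) and quartiles (bars) of the members in 100 bp bins of the peak centre relative to the TSS (x axis, bp, negative values upstream); bins with under 20 peaks are left out. The median peaks at 621.5 tags in the second bin upstream of the TSS and is 345 tags in the second bin downstream.

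The same order was seen at single TSSs. At 75 TSSs an upstream and a downstream member flanked the same start, and the upstream one was higher at 49 of them (65.3%, 95% exact interval 53.5 to 76.0%), with median scores of 420 and 328 tags. At Hif1a, the oxygen-regulated transcription factor, the member 173 bp upstream had 880 tags and the member 539 bp downstream of the same start had 352.5 tags. The 2 members of Mbd3, with 1663.5 tags upstream and 808.5 tags downstream, belonged to different neighbouring starts.

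An annotated noncoding transcript of any strand began within 1 kb of 1542 members (16.9%). In 895 of them (9.82%) it was antisense, upstream and transcribed away from the protein-coding gene. These 895 members had a median score of 507.5 tags, and 80% of those that missed the TSS were upstream (interval 75.9 to 83.7%). Members without a noncoding start within 1 kb had a median of 436 tags and an upstream share of 65.7% (interval 64.1 to 67.3%). For the 895 members, the antisense start had to lie within 1 kb of the peak as well as of the TSS. Upstream members near such a TSS always meet this and downstream members may not, so part of the difference follows from the rule.

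Base composition followed the choice of the members, with a median CpG ratio of 0.802 and a median GC content of 68.5%. Within the members the score rose with the CpG ratio up to 1. The median score was 282 tags at ratios from 0.4 to 0.6, 433.8 from 0.6 to 0.8, 496.5 from 0.8 to 1 and 469.5 above 1. Across the 9112 peaks Spearman's rho was 0.243 with the CpG ratio and 0.0767 with the GC content of the peak.

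The GC box was the most common of the strings in members and rose with the score. SP1 and related factors bind the GC box, searched as GGGCGG, and 58.9% of members held it (interval 57.9 to 59.9%), against 13.5% of CpG-poor promoter peaks and 54.8% of divergent pair peaks. The string holds a CpG, so its contrast with CpG-poor peaks follows in part from how the members were chosen. For reference, 1 window as wide as a peak was centred on a TSS of each gene with an eligible promoter, as defined below. The string was in 51.6% of these 13440 windows, in 59.1% of those at genes with a member and 40.4% of those at genes without one. The share of members with a GC box was 45.0%, 56.6%, 65.5% and 68.4% in the 4 score groups from the lowest to the highest. Median scores were 381 tags without a GC box, 463.5 with 1, 503.2 with 2 and 507.5 with 3 or more, while the median GC content rose from 64.4 to 75.2%. Having a member and the score both rose with the CpG ratio, and whether the GC box adds to this was not tested.

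NFY, a factor that binds the CCAAT box, showed a clear rise with score, and its string holds no CpG. The string CCAATCA was in 6.96% of members (interval 6.44 to 7.50%), against 5.14% of the windows at all eligible promoters, 4.37% of CpG-poor promoter peaks and 12.7% of divergent pair peaks. Its share rose from 2.90% in the lowest score group through 4.30 and 7.20% to 13.4% in the highest. Members with the string had a median score of 638.2 tags and those without it 430.5 tags. The difference was there on each side of the TSS. Upstream members had medians of 740.2 and 520 tags with and without it, those covering the TSS had 591.8 and 431 tags, and the 36 downstream members with it had 517.8 tags against 315. Members with 1 NFY string had a median GC content of 63.8%, below the 68.5% of members with none, and their median centre was 62 bp upstream.

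**Figure D3:**
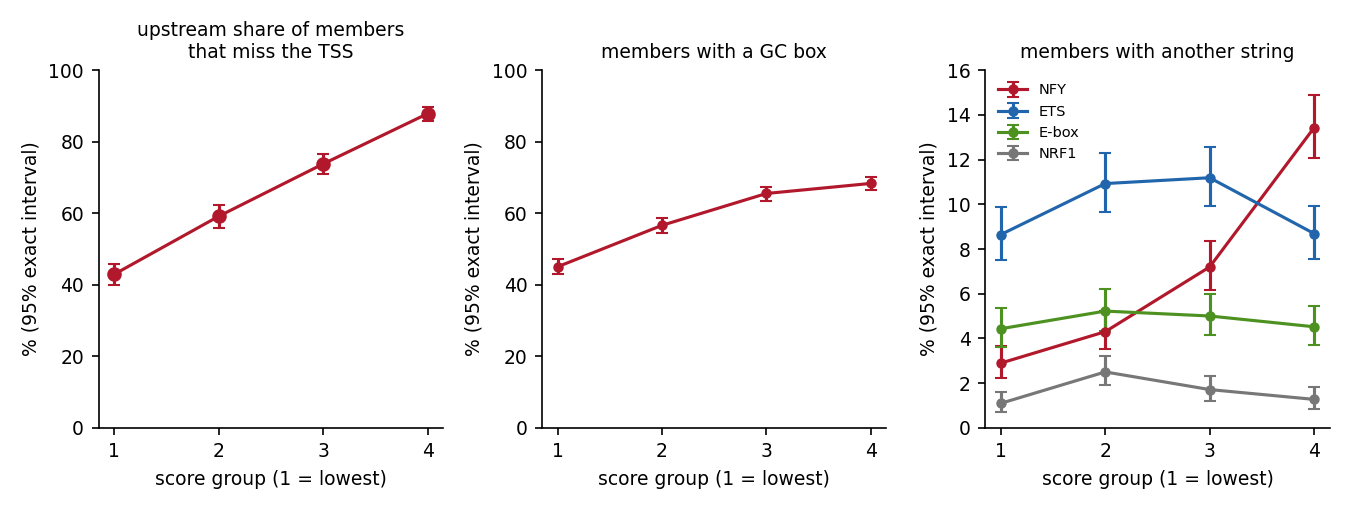
Shares of members in 4 score groups (x axis, 1 lowest, 2278 members each), with exact 95% intervals (bars): the upstream share of members that miss the TSS (left), members with a GC box (middle) and members with an NFY, ETS, E-box or NRF1 string (right). The upstream, GC box and NFY shares rise from the lowest to the highest group, and the other 3 strings show no such rise.

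The other strings of broadly expressed factors were less common in members than in the reference windows. ETS proteins (CCGGAAG) matched 9.87% of members against 10.8% of windows, NRF1 (GCGCATGCG) 1.65% against 2.13%, the cyclic AMP response element (CRE, TGACGTCA) 1.57% against 2.20%, the E-box (CACGTG) 4.80% against 5.94% and YY1 (AAGATGGCG) 1.66% against 2.52%. The windows are centred on the TSS and many members are not, so these shares compare different positions. Between windows at genes with and without a member, YY1 was in 3.4 and 1.22%, ETS in 12.2 and 8.67%, NRF1 in 2.43 and 1.68%, CRE in 2.30 and 2.05%, and the E-box in 5.74 and 6.23%. The share of members with an ETS string was 13.8% where the TSS was covered, 6.16% upstream and 3.61% downstream. The ETS share was 8.65% in the lowest and 8.69% in the highest score group.

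The strings searched for lineage and signal factors were rare in members. Each is 1 exact string, and other sequences that the same factors bind were not counted. GATA factors (AGATAA) matched 1.2% of members, 9.67% of CpG-poor promoter peaks and 14.2% of gained peaks beyond 1 kb. The TEAD string (CATTCCA) was in 0.801% of members against 5.4% of peaks beyond 1 kb, and the MEF2 string (CTAAAAATA) in 8 members (0.0878%) against 1.11%. These strings are rich in A and T, and the members are rich in G and C. The HIF string (TACGTG) was in 1.75% of members and 1.75% of windows. The TATA box (TATAAA) was in 1.33% of members, 3.19% of windows and 3.87% of CpG-poor promoter peaks. In all, 2576 members (28.3%) held none of the 12 strings, and matches of different strings overlapped in few places, most often a GC box with an ETS string in 23 members.

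Within the members several strings had preferred places and directions. NFY strings were centred at a median of 63 bp upstream and GC boxes at 41.5 bp upstream. YY1 strings were centred at a median of 17 bp downstream, and 121 of 153 (79.1%, interval 71.8 to 85.2%) read in the direction of the gene. TATA boxes pointed the same way in 90 of 127 matches (70.9%). Smaller excesses in the sense direction were seen for GC boxes, 55.5% of 9721 matches (interval 54.6 to 56.5%), and ETS strings, 54.3% of 1018 (interval 51.2 to 57.4%), while NFY strings were sense in 48.8% of 692 (interval 45.1 to 52.6%). Per kb of member sequence, NFY strings fell from 0.973 in the bin from 51 to 100 bp upstream to 0.139 in the first 50 bp downstream.

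**Figure D4:**
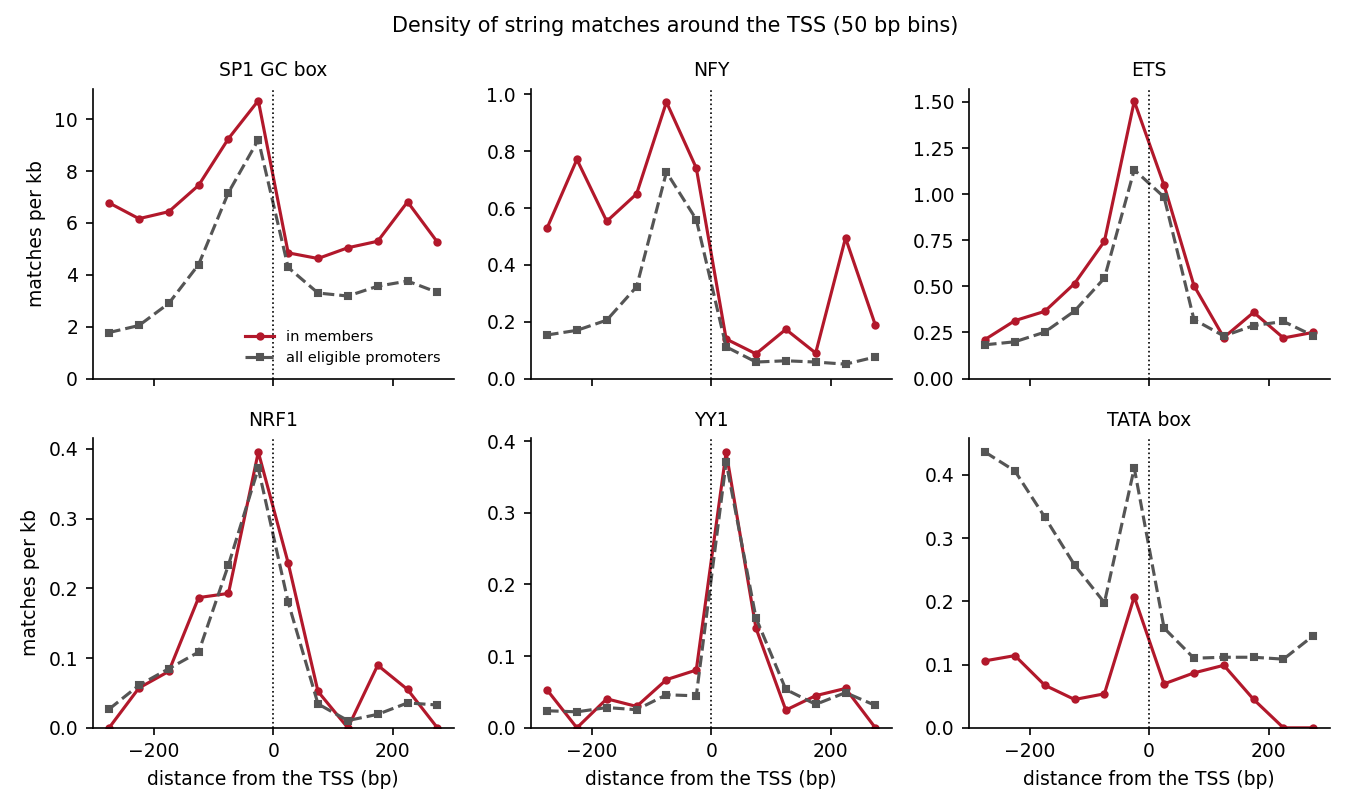
Matches per kb (y axis) to 6 strings in 50 bp bins of distance from the TSS (x axis, negative values upstream), in members (circles, solid line; per kb of member sequence in the bin) and at all 13440 eligible promoters (squares, dashed line). In members, GC box, ETS and NRF1 matches are densest in the 50 bp just upstream of the TSS, NFY matches in the 50 bp before that, and YY1 matches in the 50 bp from the TSS onward.

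Most genes with a single-gene CpG-rich promoter had a member. An eligible promoter was a TSS with a CpG ratio of at least 0.4 in the 500 bp around it that was in no divergent pair, and 13440 protein-coding genes had one. Of these, 8033 had a member within 1 kb, which is 59.8% (interval 58.9 to 60.6%). A gained peak of any kind was present within that distance at 65.8% of the 13440 genes, at 83.8% of the 1559 genes with divergent CpG-rich promoters only and at 6.01% of the 6939 genes with CpG-poor promoters only. The share with a member rose with the CpG ratio of the promoter. It was 23.9% of genes at ratios from 0.4 to 0.6, 58.6% from 0.6 to 0.8, 72.0% from 0.8 to 1 and 78.2% above 1. The rule asks for the CpG minimum at the peak itself, so part of this rise follows from it. With a gained peak of any kind counted instead, the shares were 39.2%, 63.9%, 75.3% and 80.3%.

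Most genes had 1 member. Each member was assigned to its nearest TSS, which gave 7961 genes, and 1040 of them (13.1%) had 2 or more members. Neighbouring members of a gene were a median of 689 bp apart and never closer than 310 bp. The 9 genes with 4 members were Dab2ip, Hunk, Kansl1, Kcnn2, Mpp2, Pde4d, Rai1, Tcf4 and Utrn. Utrn, which encodes the dystrophin relative utrophin, had scores of 588 and 532.5 tags at neighbouring starts and 129.5 and 59.5 tags at 2 other starts. Pde4d, a phosphodiesterase that degrades cyclic AMP, had 4 members of 110.5 to 322 tags spread over starts far apart, and Rai1, a chromatin-associated regulator, had 4 of 430.5 to 757 tags.

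Chromosome X stood apart from the autosomes. A member was found at 48.2% of its 519 eligible genes (interval 43.8 to 52.6%), against 60.3% on the autosomes (interval 59.5 to 61.2%) and a range over single autosomes from 56.3 to 64.0%. The 279 members on X had a median score of 263.5 tags with quartiles of 174.8 and 358, and the 8830 autosomal members one of 448 tags with quartiles of 301 and 658.5, a ratio of 0.588. The score remained lower on X at matched CpG ratios, with medians of 261.5 against 440 tags at ratios from 0.6 to 0.8 and 313 against 496.5 tags at 0.8 and above. The shares of genes were closer once promoters were matched, at 52.6% on X (interval 44.9 to 60.2%) and 59.0% on autosomes from 0.6 to 0.8, and 71.3% (63.8 to 78.0%) and 73.6% at 0.8 and above. Embryos of both sexes were used, and the sex makeup of each pool is not given in the sources used here.

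Gene lists were read against the 59.8% of all eligible genes that had a member. Glycolytic enzymes had members at 16 of 17 eligible genes (94.1%, interval 71.3 to 99.9%), with a median of 664.2 tags for the highest member of each gene, against 470.5 tags over all genes with a member. Eno1, an enolase, led with 1556.5 tags, followed by Aldoa, an aldolase (1124 tags), Pkm, a pyruvate kinase (1049.5 tags), Hk1 (974.5 tags) and Hk2 (959 tags). Pfkm, the muscle form of phosphofructokinase, was the lowest with 277.5 tags. Aldoc had only a gained peak of another kind, and Eno3, the muscle enolase, has a CpG-poor promoter with no gained peak.

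Genes of oxygen sensing and targets of HIF had members at 17 of 20 eligible genes (85.0%, interval 62.1 to 96.8%), with a median of 695.5 tags. Ankrd37 (1122 tags), Bnip3 (1119.5 tags), P4ha1 (1112.5 tags) and Slc2a1, the glucose transporter GLUT1 (1060 tags), were the highest, and Hif1a itself had 880 tags. The oxygen sensors Egln1, Egln2 and Egln3 had 533, 475.5 and 432 tags, and Vhl, which marks HIF for destruction, had 314.5 tags. Hmox1, the haem-degrading enzyme, and Car9, a carbonic anhydrase, had no gained peak within 1 kb. Angiogenic ligands and receptors had members at 10 of 13 eligible genes (76.9%, interval 46.2 to 94.96%) but with low scores, a median of 300 tags. Pdgfra (593 tags), Vegfa (543.5 tags), Nrp2 (435.5 tags) and Vegfb (329.5 tags) were the highest, the VEGF receptor gene Flt4 had a member 942 bp downstream of a start, and the other VEGF receptor genes, Kdr and Flt1, had none. Of the 5 with CpG-poor promoters, 3 (Angpt2, Tek and Aplnr) had a gained peak, against 6.01% of all genes with such promoters.

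Chromatin genes held some of the tallest members. NuRD subunits and class I histone deacetylases had members at 11 of 16 eligible genes (68.8%, interval 41.3 to 89.0%), with a median of 591.5 tags. Mbd3 (1663.5 tags) and the scaffold subunits Gatad2a (1472.5 tags) and Gatad2b (1134.5 tags) were at or above the 95th percentile of genes with a member, and the deacetylase Hdac1 had 955 tags. Chd4, the remodelling ATPase that the study relates to SMYD1, had 2 members of 274 and 225.5 tags, and its relatives Chd3 and Chd5 had none. The subunit genes Mta2 and Mta3 had no gained peak within 1 kb, Rbbp4 had only a gained peak of another kind, and Mta1 had 220 tags. Histone lysine methyltransferases had members at 16 of 21 eligible genes (76.2%, interval 52.8 to 91.8%), with a median of 582.8 tags. Setd2 (1304 tags), Kmt2b, an enzyme that methylates lysine 4 of histone H3 (1177 tags), Kmt5a (896.5 tags) and Dot1l, which methylates lysine 79 (813.5 tags), were the highest. Smyd1 has a CpG-poor promoter with no gained peak, so these peaks give no check of its deletion.

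Cell cycle genes had members at 13 of 19 eligible genes (68.4%, interval 43.4 to 87.4%) and the highest list median, 736 tags. E2f3 (1301.5 tags), Ccna2, cyclin A2 (1221 tags), E2f1 (982 tags) and Cdk4 (850 tags) led, while Ccnd1, Cdkn1a and Cdkn1c had no gained peak within 1 kb. Cytosolic ribosomal proteins had members at 18 of 22 eligible genes (81.8%, interval 59.7 to 94.8%) and proteasome subunits at 15 of 20 (75%, interval 50.9 to 91.3%), both with medians close to that of all genes, 467.2 and 464 tags. Among the 24 ribosomal protein genes listed, which are not the whole family, Rpl27 (854.5 tags) and Rplp0 (736 tags) were the highest. Among the 24 proteasome genes listed, Psmb3 (896.5 tags), Psma5 (673 tags), Psmc4 (672 tags) and Psmc6 (594.5 tags) were the highest.

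Cardiac transcription factors had members at 14 of 20 eligible genes (70%, interval 45.7 to 88.1%), with a median of 530.5 tags. Tbx3, a factor of the conduction system (1055 tags), Srf, the regulator of muscle and cytoskeletal genes (1049 tags), Hey2, a Notch target of the ventricle (924.5 tags), and Gata5 (886.5 tags) were the highest. Nkx2-5, Tbx5, Tbx20, Hand2, Isl1 and Irx4 had no gained peak within 1 kb. Of 20 sarcomere genes only 7 had an eligible promoter, and 2 of these had a member (28.6%, interval 3.67 to 70.96%). They were Tpm1, a tropomyosin with 2 members of 676.5 tags each, and Actn2, the alpha-actinin of the Z disc (556 tags). Of the other 5, 4 (Myh7, Myl2, Ttn and Myom1) had a gained peak of another kind, so that 6 of the 7 (85.7%, interval 42.1 to 99.6%) had any gained peak, against 65.8% of all eligible genes. Most sarcomere promoters were CpG-poor, and 11 of 12 of those had a gained peak, against 6.01% of all genes with CpG-poor promoters.

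Genes of other cell types in the heart served as markers. Endothelial and endocardial genes had members at 3 of 14 eligible genes (21.4%, interval 4.66 to 50.8%), namely Egfl7 (400 tags), Esam (191.5 tags) and Npr3 (190.5 tags), and none of the 6 with CpG-poor promoters had a gained peak, where 6.01% of all genes with such promoters did. The endothelial receptor gene Tek, held by the angiogenic list, did have one. The defining endothelial regulators Tal1, Erg, Fli1, Sox7, Sox17 and Sox18 had none within 1 kb. Erythroid and blood genes had members at 3 of 10 eligible genes (30.0%, interval 6.67 to 65.3%), Tfrc (823.5 tags), Runx1 (539.5 tags) and Ikzf1 (185.5 tags), and none of the 8 with CpG-poor promoters, among them the globin genes Hba-a1 and Hba-x, had a gained peak, again beside 6.01% of all such genes. Epicardial and mesenchymal genes had members at 10 of 14 eligible genes (71.4%, interval 41.9 to 91.6%), with a median of 332.5 tags. Snai1 (757 tags), Pdgfra (593 tags), Vim (479 tags) and Snai2 (427 tags) were the highest.

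Of 13 genes named in the text of the study, 11 had an eligible promoter and 7 of them a member (63.6%, interval 30.8 to 89.1%). These were Hk2, Vegfa, Chd4 and Ikzf1, given above, Ppard, a nuclear receptor of lipid metabolism (600.5 tags), Rora, another nuclear receptor (485.5 tags), and Fgf9, a growth factor (287 tags). The eligible promoters of Sox17, Hmox1, Igfbp3 and Lef1 had no gained peak within 1 kb, and Klf1 and Smyd1 have CpG-poor promoters. The study used promoter regions that reach beyond 1 kb. It shows Sox17 as a gene with increased expression and accessibility, and places Hmox1 and Igfbp3 among genes with gained peaks in both *Smyd1* and *Chd4* mutant hearts. Absence within 1 kb therefore does not mean that these genes gained no accessibility. The list of 13 genes was drawn from the study's own account of these hearts and is not independent evidence.

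**Figure D5:**
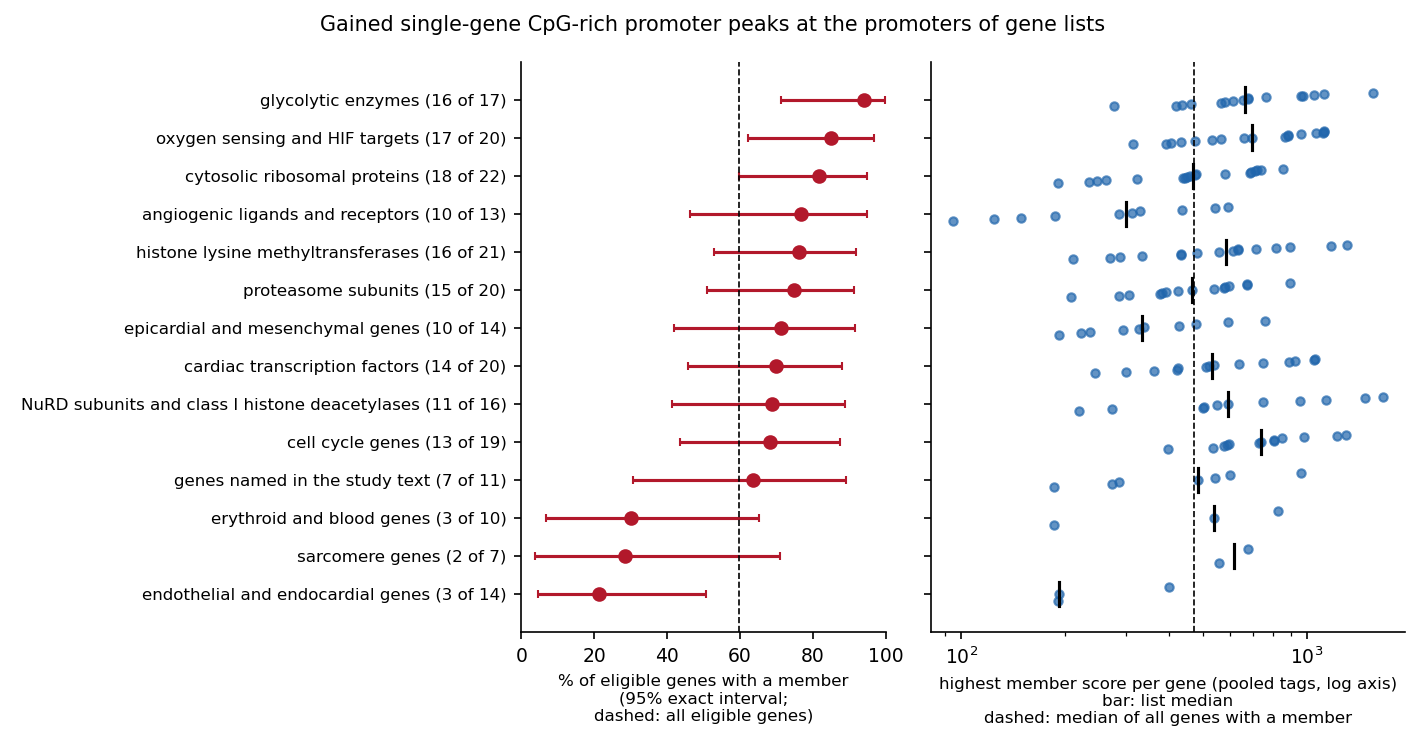
Left, the percentage of eligible genes of each list with a member (points, 95% exact intervals; number with a member and number eligible in brackets) beside the share of all eligible genes, 59.8% (dashed line). Right, the highest member score of each gene (points, pooled tags, log axis, spread vertically for visibility) with the list median (bar) and the median of all genes with a member, 470.5 tags (dashed line). Glycolytic and oxygen-sensing genes lie highest in share, and endothelial, sarcomere and blood genes lowest, although 6 of the 7 eligible sarcomere genes had a gained peak of some kind.

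The thresholds cut through continuous values. Just inside the CpG minimum of 0.4 were members at Gramd1b (229.5 tags), Dynlt3 (400.5 tags) and E2f2 (548 tags), and just outside it were peaks at Zfp729b, which had the fewest tags of these 6, Zfp85 (221.5 tags) and Pls3 (307 tags). Just inside the distance of 1000 bp were members at Stk35 (243.5 tags), Kcnn2 (506 tags) and Gata3 (799 tags), the last 993 bp from the TSS. Just outside it were peaks near Id1 (459 tags, at 1005 bp), Ube2g1 (706 tags) and Trp53 (422.5 tags).

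In the other direction, the authors' list of peaks more accessible in WT hearts held 106 peaks, and 1 of them met the conditions for a member (0.943%, interval 0.0239 to 5.14%). It lay 399 bp downstream of a TSS of the predicted gene Gm10720 with a score of 941.3 tags, and 89.9% of its 31-base words recur elsewhere in the genome. Among the 9112 members, 263 (2.89%) had more than 10% such recurring sequence.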

How the data were processed

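The data are ATAC-seq libraries of E9.5 hearts, 2 per genotype, and 2 deposited peak lists. The authors aligned reads with BWA-MEM to mm10, combined the libraries of a genotype, called peaks with HOMER 4.10.3, kept those that differed at least 2-fold and annotated them with ChIPseeker 1.20.0. The deposited value is a signal, read here as HOMER's pooled tags per peak, and all peaks have the same width. All 25745 values of the *Smyd1-KO* list are multiples of 0.5, but only 13 of the 106 of the WT list are, and whether either list was scaled to a common total is not given in the sources used here. Treatment of duplicates, multiply mapping reads and the Tn5 offset is not given in the sources used here, each library was sequenced to a stated 100 M reads, and the number of reads kept per library is unknown. Replicate error could not be computed.

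TSSs were the 93513 distinct transcript starts of 21938 protein-coding genes in GENCODE M21. CpG ratio, GC content and string matches were computed from GRCm38 in Python 3.11.15 with numpy 2.4.6, pandas 2.3.3, scipy 1.17.1 and statsmodels 0.14.6. Position was measured from the peak's centre to the nearest TSS by edge distance. Reference windows were centred on the eligible TSS with most starts of its gene within 100 bp. Intervals are Clopper-Pearson 95% intervals. Fisher's exact tests were Benjamini-Hochberg adjusted, and peak assignment and the test were checked on simulated peaks. Genes were named by rule, namely the 10 highest members, up to 4 per list, the genes named in the study, those with most members, the lowest member and those at the thresholds. Further genes with values or without a peak were named after their values were seen. The members and the 14 gene lists were chosen with earlier results of these data known. Alternatives varied the TSS set, CpG minimum, distance, divergent gap, score, repeats, chromosomes and peaks per gene.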

Additional observations from a re-analysis of the deposited data

How the results depend on the processing

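Of 173 comparisons of a value with its alternative over 11 settings, 120 stayed on their side of the test or within their interval. The number of members stayed within 1.5 times under every setting. The TSS set mattered most for the upstream and covering shares, and the gene share moved most with the CpG minimum. With starts of protein-coding transcripts only, the upstream share of members was 62.5%, the covering share 50.9%, the share of eligible genes 61.4%, and the odds ratios of the upstream share were 1.19 against CpG-poor peaks and 0.992 against divergent peaks. With the 5′-most TSS per gene these were 47.1%, 43.8%, 63.2%, 0.825 and 1.48, the last passing Fisher's exact test (adjusted p = 0.00565), the median centre was 0.5 bp downstream and the median score 454.8 tags. The 5′-most start leaves more of a promoter downstream of the start by construction. At a CpG minimum of 0.3 the median score was 428.5 tags and the gene share 54.7%, and at 0.6 they were 466.5 tags and 64.1%, with a covering share of 55.9%. Within 500 bp the upstream and covering shares were 69.1 and 57.2%, the median score 450.5 tags, the gene share 58.6%, and the upstream odds ratios 1.17 against CpG-poor peaks (Fisher's exact test, adjusted p = 0.136) and 0.789 against divergent peaks. With divergent pairs up to 2 kb the latter was 0.9504. With scores at or above the list median the upstream share was 69.5%, the median centre 26 bp upstream (-26 bp), the median score 467.5 tags and the gene share 55.7%, and no high-score test is defined. Without repeated sequence the gene share was 58.2%, and on autosomes only the median score was 448 tags. With 1 peak per gene the upstream and covering shares were 70.8 and 57.6% and the median score 466.5 tags, and no gene share was computed. For the other alternatives the cause was not tested. The other alternatives of the covering and high-score tests kept their direction and passed.

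The scores by side were examined under these settings after seeing the data. The median was 523.5 to 593.2 tags upstream and 301.5 to 377.8 tags downstream, and the upstream share was 71 to 89.5% in the highest and 28.8 to 48.2% in the lowest of the 4 score groups. No paired analysis was possible because the deposited lists pool the libraries of a genotype, and for the same reason no library could be left out. Unchanged peaks were not used here, so the members cannot be set against open promoters that did not differ.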
